A study of Homo sapiens with 10 samples.

Results

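The carcinoembryonic antigen-related cell adhesion molecules (CEACAMs) were examined in A549 cells, a human lung adenocarcinoma line, through 8 genes: CEACAM1, CEACAM3, CEACAM4, CEACAM5, CEACAM6, CEACAM7, CEACAM8 and CEACAM19. The members were taken as every array spot that the platform annotation gives 1 of these symbols, which is 14 of 31332 named spots and 8 of 18334 genes. The list was chosen by the measured difference in log2 intensity between the culture conditions on these same arrays. The differences of the members are therefore given as a description, without p-values.

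The study compared A549 cells grown in rotating wall vessels (RWV) with A549 cells grown as monolayers (Mono), with 5 biological replicates of each per the labels. In an RWV, a horizontally rotated culture chamber full of medium, cells are kept from settling at low shear and tend to aggregate. The cultures received 10% foetal calf serum and 4 mM l-glutamine in Dulbecco's medium. The labels name the RWV in the growth protocol of the Mono samples as well, so the groups were taken from the titles and source names. All samples were of 1 cell line, and Cy3-labelled RNA from each was hybridised to a one-colour array.

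CEACAMs are immunoglobulin-like surface glycoproteins, several of which bind one another on neighbouring cells. CEACAM5 (carcinoembryonic antigen), CEACAM6, CEACAM7 and CEACAM8 are held in the membrane by a glycosylphosphatidylinositol (GPI) anchor, whereas CEACAM1, CEACAM3, CEACAM4 and CEACAM19 span the membrane. CEACAM1, CEACAM5 and CEACAM6 are found on epithelia, where several are receptors for bacterial adhesins, and CEACAM3, CEACAM4 and CEACAM8 are best known from granulocytes.

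Each array held 45220 spots, with a median intensity of 114 to 138 in RWV and 122 to 184.5 in Mono cultures. Intensities were made comparable by quantile normalisation, and those below 100 were taken as dim, with no order among them. Of the epithelial markers, all 8 were above the dim level in at least 1 group, with a summed normalised intensity of 67724 to 118232 on RWV and 60313 to 95028 on Mono arrays. Arrays 1 to 3 of each group (array set 1) differed from arrays 4 and 5 (set 2) at the lower end of their intensities, and these array sets each hold both conditions. The sets differed at the upper end as well. Spots at or above 60000 numbered 422 to 487 on RWV 1 to 3, against 666 and 823 on RWV 4 and 5. On Mono 1 to 3 they numbered 445 to 528, against 866 and 840 on Mono 4 and 5. Along the first principal component of all genes, which carried 64.0% of the variance, RWV arrays lay at 20.3 to 54.5 and Mono arrays at -72.8 to -21.6. RWV 3 was the RWV array nearest to the Mono cultures, and Mono 4 was the Mono array farthest from the RWV cultures.

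CEACAM6, CEACAM3, CEACAM7, CEACAM1 and CEACAM5 had higher signals in RWV than in Mono cultures. For CEACAM7 this held on spot 37724 only, its other spot being dim, and CEACAM5 was above the dim level on part of the RWV arrays. CEACAM19 differed between its spots, and CEACAM4 and CEACAM8 were dim in both. On the log2(normalised intensity + 50) scale, the gene means differed by 5.92 ± 0.66 for CEACAM6, 3.63 ± 0.43 for CEACAM3, 2.74 ± 0.33 for CEACAM7, 2.55 ± 0.44 for CEACAM1 and 2.28 ± 0.67 for CEACAM5 (RWV minus Mono, ± SE of the limma fit, n = 5 each). These 5 of the 8 members passed the test across all genes (limma, Benjamini-Hochberg adjusted p under 0.05) as higher in RWV, and 0 passed as lower. Of all genes, 14.8% passed as higher and 15.4% as lower, and nothing is read from the members' count, since this contrast chose them. The median difference was 2.41 over the members, or 1.88 with the RWV mean of CEACAM5 taken against the dim level, and 0.00 over all genes. In bulk cultures, more or fewer expressing cells and more or less RNA per cell cannot be told apart.

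Of the 14 member spots, 10 passed the same test as higher in RWV and 0 as lower, where 13.8% of all named spots passed as higher and 14.8% as lower. Every RWV array lay above every Mono array in 4 of the 8 members and 8 of the 14 spots, against 10.7% of all genes and 9.97% of all named spots. CEACAM3, CEACAM6 and CEACAM7 each have 2 named spots, CEACAM19 also has 2, CEACAM1 has 3, and CEACAM4, CEACAM5 and CEACAM8 have 1. The members are close in sequence and the probe sequences were not used here, so how much of a spot's signal came from another member was not tested. Levels are therefore compared between arrays for 1 spot, never between spots.

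**Figure D1:**
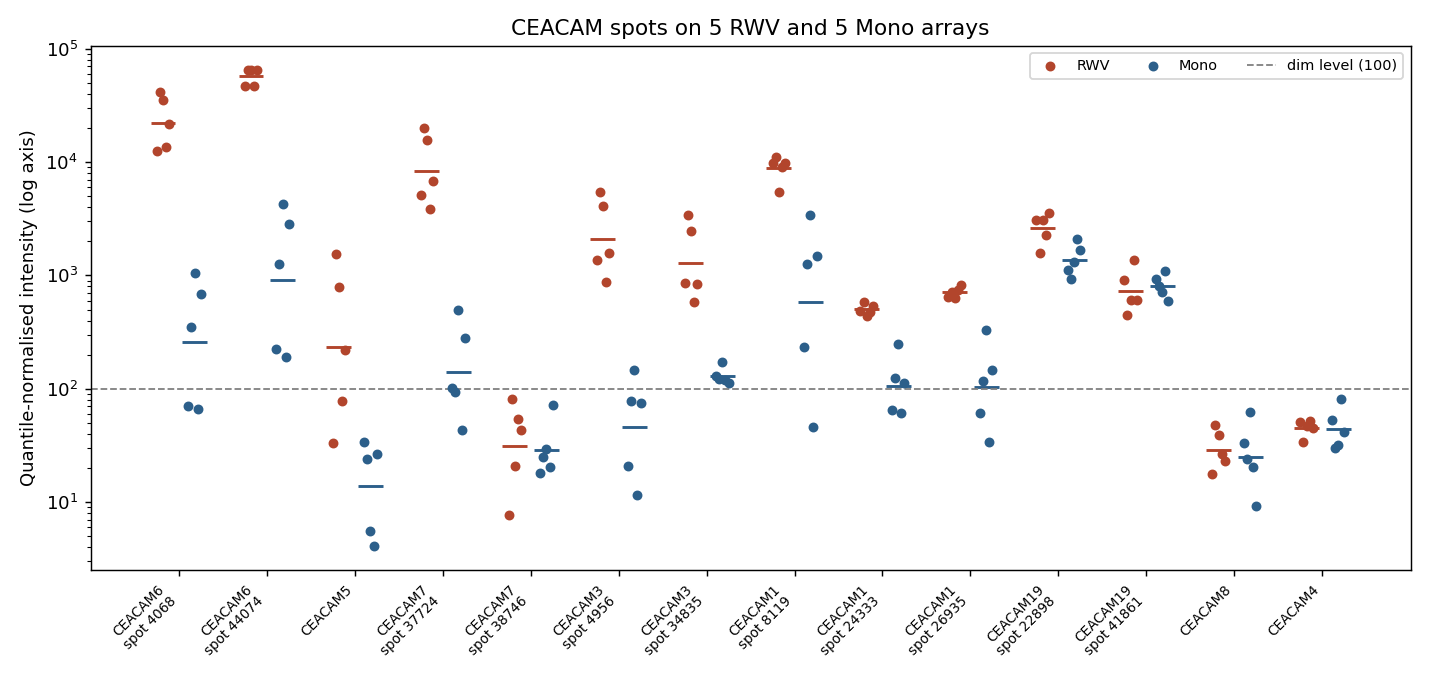
Quantile-normalised intensity (log axis) of the 14 CEACAM spots, with 5 RWV arrays on the left of each pair and 5 Mono arrays on the right. Points are arrays, bars are geometric means and the dashed line is the dim level of 100. The groups are apart in both CEACAM6 spots, both CEACAM3 spots, all 3 CEACAM1 spots and CEACAM7 spot 37724, and CEACAM4, CEACAM8 and CEACAM7 spot 38746 stay under the line.

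CEACAM6, a GPI-anchored adhesion protein of epithelia and granulocytes that also serves as a receptor for adherent gut bacteria, had the largest difference of the members. Spot 4068 had normalised intensities of 12464, 41715, 35527, 13551 and 21626 on RWV arrays 1 to 5, against 70.9, 352.3, 1042, 65.7 and 687.1 on Mono arrays 1 to 5. The lowest RWV array was thus above the highest Mono array, and 3 of the 5 Mono arrays were above the dim level. The difference was 6.03 ± 0.62 (log2, ± SE), or 65.5-fold. Spot 44074 read 46602, 65270, 64956, 46558 and 65165 on RWV and 222.1, 1258, 4252, 190.3 and 2853 on Mono arrays. The groups again did not overlap, and the difference was 5.81 ± 0.71, without a fold because 3 of the RWV values were saturated.

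Spot 44074 of CEACAM6 was saturated, at a deposited intensity of 60000 or more, on 3 RWV arrays and 0 Mono arrays. With such values removed, spot 44074 differed by 5.52 and the gene mean by 5.61. The removal keeps only the lowest RWV arrays of this spot, RWV 1 and RWV 4, so its smaller difference follows from the removal itself. On the 3 saturated RWV arrays the gene mean then rests on spot 4068 alone, so it mixes levels of different spots. On RWV arrays 91.5% ± 1.38 of spots at or above 60000 lay within 200 of the readout's ceiling, against 7.17% ± 1.08 on Mono arrays (SD, n = 5 each). The ranges were 89.3% to 93.1% and 5.84% to 8.45%, so every array of a group shared its readout. For saturated values the readout and the culture cannot be told apart. Whether the readout also differed between the groups below 60000 was not tested. Spot 4068 reached the saturation level on 0 arrays. The CEACAM6 difference was 5.90 within array set 1 and 5.96 within array set 2, and lay between 5.47 and 6.40 when each array was left out in turn.

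Among Mono cultures, CEACAM6 signals were spread widely: the log2 SD of spot 4068, which was not saturated, was 0.79 over RWV and 1.48 over Mono arrays, with 2 of the Mono values dim. In spot 44074 the Mono arrays ran, from high to low, 3, 5, 2, 1 and 4, and in spot 4068 likewise 3, 5 and 2, with 1 and 4 dim. This is also the order of the Mono arrays along the first principal component, at -21.6, -34.5, -37.4, -55.7 and -72.8, and its part in the CEACAM6 result was not tested.

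CEACAM5, the GPI-anchored carcinoembryonic antigen measured in serum as a tumour marker, was seen on part of the RWV arrays. Its single spot read 33.1, 1533, 792.4, 78.6 and 220.5 on RWV arrays 1 to 5, against 34.1, 23.9, 5.6, 4.1 and 26.7 on Mono arrays. It was dim on all 5 Mono arrays and above the dim level on RWV 2, 3 and 5, so the groups overlap in the dim range. Against the dim level of 100, its RWV mean was 2.34-fold higher. This mean takes the dim values of RWV 1 and RWV 4 as read, so it is not a strict lower bound. The fitted difference of 2.28 ± 0.67 no longer passed the test without RWV 3 (1.94), without RWV 3 and Mono 4 together (1.86), with a pseudocount of 200 (1.31), or within array set 1 (2.78) or 2 (1.53). Within RWV the arrays ran from dim to 1533, so cultures of 1 condition differed widely.

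CEACAM7, a GPI-anchored protein known mainly from the surface epithelium of the colon, differed between its spots. Spot 37724 read 5084, 20061, 15794, 3889 and 6775 on RWV arrays, against 100.7, 93.2, 497.1, 43.4 and 282 on Mono arrays. No RWV array overlapped with a Mono array there, and the difference was 5.37 ± 0.54, or 41.3-fold, with 3 of 5 Mono arrays above the dim level. Spot 38746 stayed dim throughout, at 7.7 to 81.4 on RWV and 18 to 71.9 on Mono arrays. The gene mean of 2.74 averages these, and the spots are 5.25 log2 units apart, the widest gap between spots of any member.

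CEACAM3, a membrane-spanning receptor by which granulocytes take up CEACAM-binding bacteria, was higher in RWV on both spots. Spot 4956 read 1363, 5410, 4059, 882.1 and 1585 on RWV and 20.7, 77.4, 145.7, 11.5 and 75.3 on Mono arrays. The groups did not overlap, but only 1 of 5 Mono arrays was above the dim level, and the difference was 4.35 ± 0.48. No fold is given for this spot, because most of its Mono values were dim. Spot 34835 read 849.6, 3409, 2490, 577.7 and 834.7 on RWV and 129.6, 120.9, 172.4, 118.8 and 113.2 on Mono arrays. There every Mono array was above the dim level and below every RWV array, and the difference was 2.90 ± 0.41, or 7.47-fold. Within array set 2 this spot differed by 2.17 and the gene mean by 2.99, and with a pseudocount of 200 the gene mean differed by 2.69.

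CEACAM3 is known from granulocytes, and the levels of granulocyte markers were as follows. Of the 10 markers MPO, ELANE, PRTN3, AZU1, FCGR3B, CSF3R, CXCR2, ITGAM, PTPRC and TYROBP, 0 passed the limma test, and 1 had an unadjusted p under 0.05. Among all genes, 14.8% passed as higher in RWV and 15.4% as lower. Their summed normalised intensity was 507 to 892 on RWV and 516 to 660 on Mono arrays, and MPO, FCGR3B, CSF3R and CXCR2 were dim in both groups. PRTN3 (proteinase 3) had the lowest p of the list, at 172.6, 197.6, 89.1, 255.2 and 172.6 on RWV and 93.3, 134.8, 134.2, 59.3 and 100.7 on Mono arrays (difference 0.54 ± 0.21, limma adjusted p = 0.069). Without RWV 3 it passed as higher in RWV (0.71, adjusted p = 0.0090), and likewise without RWV 3 and Mono 4 together (0.59, adjusted p = 0.010). The other granulocyte genes among the members, CEACAM4 and CEACAM8, were dim in both groups.

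CEACAM1, which spans the membrane and carries inhibitory signals through phosphatase-binding motifs in its long tail, was higher in RWV on all 3 spots and was the steadiest of the higher members across RWV arrays. Spot 8119 read 9915, 11001, 5435, 9113 and 9837 on RWV and 234.4, 1248, 3401, 45.9 and 1477 on Mono arrays. The groups were apart, but Mono arrays ran from dim on Mono 4 to 3401 on Mono 3. The difference of this spot was 3.63 ± 0.78, or 12.4-fold, and did not pass the test within array set 1 (2.96) or 2 (4.64). Without Mono 4 it was 2.91 and without Mono 3 it was 4.20.

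Spot 26935 of CEACAM1 read 638.9, 718.3, 635.1, 748.2 and 829.8 on RWV and 60.8, 116, 332.2, 34.2 and 145.7 on Mono arrays. Spot 24333 read 489.7, 580.9, 440.6, 474 and 542.2 on RWV and 65.5, 124.6, 248.2, 60.5 and 111.4 on Mono arrays. Both spots had 3 of 5 Mono arrays above the dim level and all RWV arrays above all Mono arrays. Their differences were 2.22 ± 0.32 (4.66-fold) and 1.78 ± 0.23 (3.44-fold), and both are annotated to the same transcript record, while spot 8119 is annotated to another. The gene mean of CEACAM1 had a log2 SD of 0.21 over RWV and 1.14 over Mono arrays.

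CEACAM19, a more distant, membrane-spanning member of the family, was well above the dim level in both cultures. Spot 22898 read 3098, 1592, 3052, 2273 and 3579 on RWV and 1118, 922.4, 1318, 2081 and 1670 on Mono arrays. RWV 2 lay within the Mono range, and the difference was 0.91 ± 0.25, or 1.88-fold, which no longer passed the test without normalisation between arrays (0.62) or within array set 2 (0.60). Spot 41861 read 917.7, 443, 609.1, 1360 and 609.1 on RWV and 924, 805.1, 710.4, 1105 and 588.7 on Mono arrays, with a difference of -0.14 ± 0.26. The groups overlapped on both spots, and the gene mean, 0.39 ± 0.20, did not pass the test except without RWV 2 (0.56) or with the brighter spot alone.

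CEACAM8, the granulocyte marker CD66b, read 17.7, 48.2, 39.4, 26.7 and 23.1 on RWV and 33.1, 23.9, 62.8, 20.5 and 9.3 on Mono arrays. CEACAM4, a granulocyte receptor with an activating tail, read 50.9, 34, 46.5, 51.9 and 44.7 on RWV and 53.5, 30, 31.8, 81.8 and 41.2 on Mono arrays. Every value of both genes was dim, so no fold is given. A filter that keeps genes at 100 or more on at least 3 arrays keeps 6 of the 8 members, and these 2 are the ones it leaves out.

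**Figure D2:**
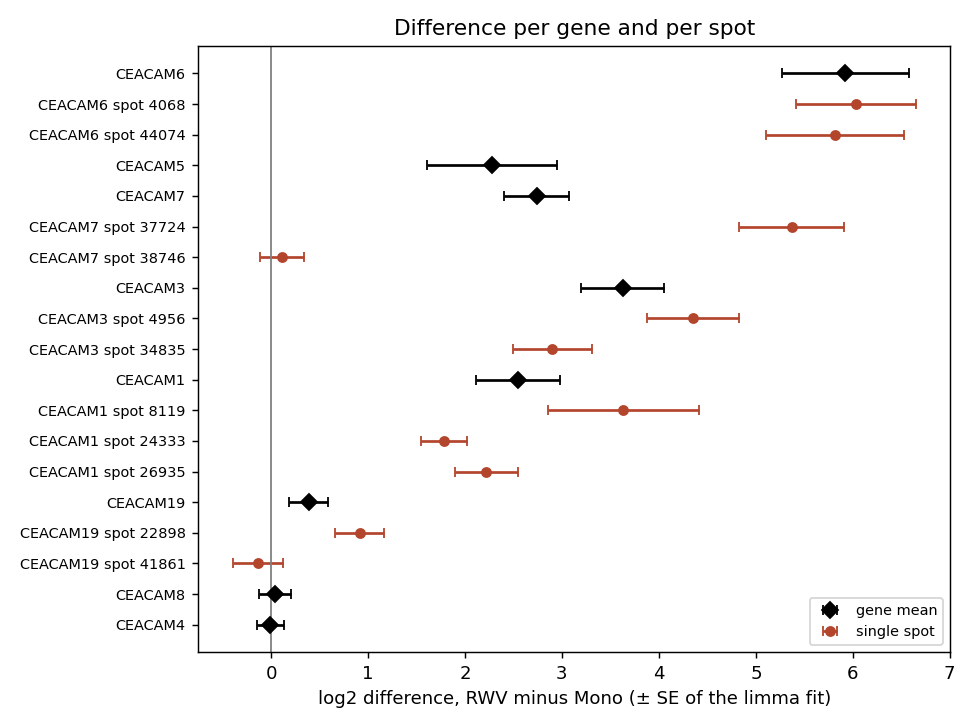
Difference between RWV and Mono (log2, RWV minus Mono) for each member gene (diamonds) and for each spot of members with several spots (circles), with the SE of the limma fit, n = 5 arrays each. The 2 CEACAM6 spots lie close together at 5.81 and 6.03, while the 2 CEACAM7 spots lie 5.25 apart.

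The RWV arrays did not rank alike for all members. RWV 2 and RWV 3 were the highest RWV arrays in 5 spots above the dim level: both CEACAM3 spots, CEACAM5, CEACAM6 spot 4068 and CEACAM7 spot 37724. In all 3 CEACAM1 spots, RWV 3 was instead the lowest RWV array. Among Mono cultures, Mono 3 was the highest array in 8 spots with a value above the dim level: all 3 CEACAM1 spots, both CEACAM3 spots, both CEACAM6 spots and CEACAM7 spot 37724. CEACAM19 did not share this order, with Mono 4 highest on both of its spots.

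**Figure D3:**
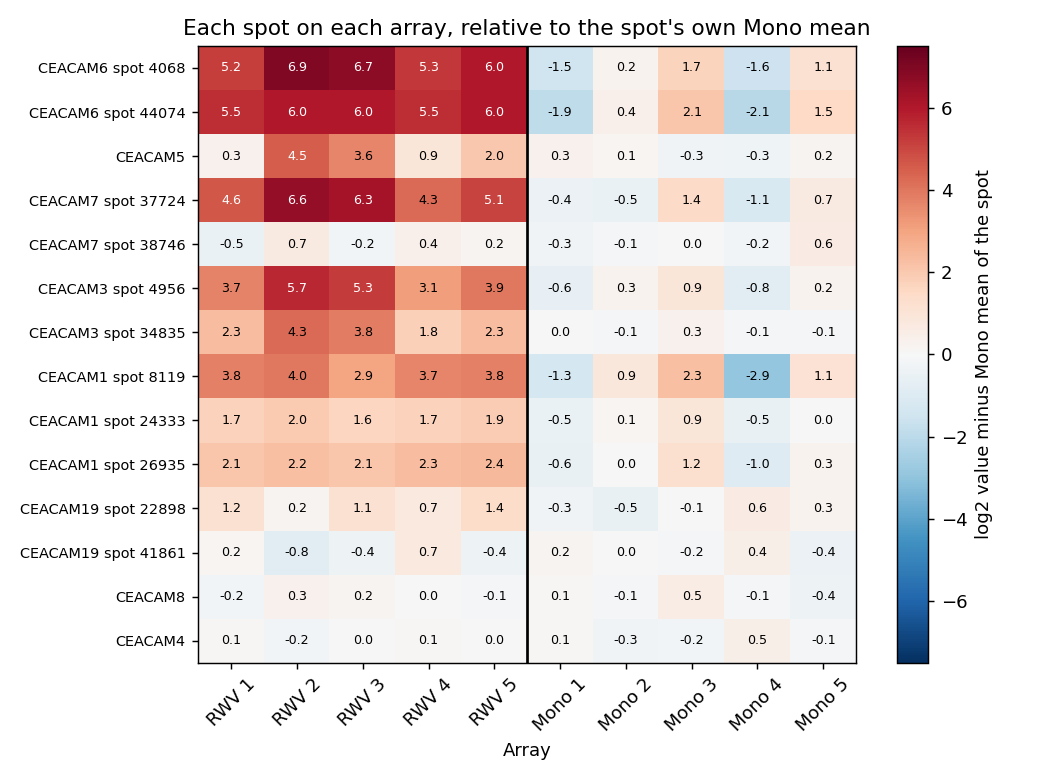
log2 value of each CEACAM spot (rows) on each array (columns, RWV left of the black line and Mono right of it), relative to the spot's own mean over the Mono arrays. The deepest red cells are RWV 2 and RWV 3 in CEACAM6 spot 4068 and CEACAM7 spot 37724, and the deepest blue cell is Mono 4 in CEACAM1 spot 8119.

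The start regions of the members were set side by side. This was done because CEACAM6, CEACAM5, CEACAM7 and CEACAM3 are neighbours on chromosome 19 and were all higher in RWV. CEACAM4, which adjoins them, was dim, as was CEACAM8. RefSeq start regions (GRCh38.p14) were matched for 7 members, and CEACAM19 had no entry. The last 150 bases before the annotated start are printed for 6 of them, all but CEACAM4, 5′ to 3′ on the gene's strand. Capitals mark the 14-base run TGAGAGGGGAGGGG and the 6-base E-box CACGTG, the sequence bound by the USF factors. The regions are chr19:41755380-41755529 (plus strand) for CEACAM6, chr19:41708476-41708625 (plus strand) for CEACAM5, chr19:41688271-41688420 (minus strand) for CEACAM7, chr19:41796437-41796586 (plus strand) for CEACAM3, chr19:42594925-42595074 (minus strand) for CEACAM8 and chr19:42528482-42528631 (minus strand) for CEACAM1.
CEACAM6: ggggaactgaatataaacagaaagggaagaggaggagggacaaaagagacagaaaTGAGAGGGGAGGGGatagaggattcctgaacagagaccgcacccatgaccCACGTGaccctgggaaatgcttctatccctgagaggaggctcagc
CEACAM5: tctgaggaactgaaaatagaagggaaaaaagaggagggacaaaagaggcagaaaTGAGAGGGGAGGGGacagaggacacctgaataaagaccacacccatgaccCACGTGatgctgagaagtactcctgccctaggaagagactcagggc
CEACAM7: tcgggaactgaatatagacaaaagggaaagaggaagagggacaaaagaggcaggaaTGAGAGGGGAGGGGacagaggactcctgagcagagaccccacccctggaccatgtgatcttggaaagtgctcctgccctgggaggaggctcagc
CEACAM3: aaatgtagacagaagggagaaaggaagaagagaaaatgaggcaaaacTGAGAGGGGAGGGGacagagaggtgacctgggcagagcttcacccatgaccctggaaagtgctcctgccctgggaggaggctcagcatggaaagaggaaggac
CEACAM8: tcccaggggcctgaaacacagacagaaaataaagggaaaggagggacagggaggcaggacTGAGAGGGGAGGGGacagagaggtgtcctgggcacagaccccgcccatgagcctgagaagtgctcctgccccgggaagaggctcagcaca
CEACAM1: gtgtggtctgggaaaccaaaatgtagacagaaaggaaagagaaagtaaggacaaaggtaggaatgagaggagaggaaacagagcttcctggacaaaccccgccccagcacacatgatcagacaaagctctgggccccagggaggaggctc

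The 14-base run was searched for as the longest run shared by at least 6 of the 7 members within the 250 bases before the start. Its presence in 6 members is thus the search rule and not a result. The 6 are CEACAM3, CEACAM4, CEACAM5, CEACAM6, CEACAM7 and CEACAM8. Both strands of all 35116 start regions of the same length were searched, and 8 held it (0.0228%), the other two being those of CEACAM21 and RABGAP1L-DT. Counted back from -1 at the last base before the start, it lies at -95 to -82 in CEACAM6, -96 to -83 in CEACAM5, -94 to -81 in CEACAM7, -103 to -90 in CEACAM3 and -90 to -77 in CEACAM4 and CEACAM8. The run is thus found both in members higher in RWV and in the dim CEACAM4 and CEACAM8, and CEACAM1, which was higher in RWV, lacks these letters in this window.

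The E-box CACGTG was found in CEACAM5, at bases -46 to -41, and in CEACAM6, at -45 to -40, and in 2228 of the 35116 start regions (6.34%). The GC box GGGCGG, the sequence bound by SP1, was found in CEACAM1, CEACAM6 and CEACAM8 and in 42.6% of all start regions, on either strand. These matches are letters in a window, and binding was not measured. The 250-base windows were also aligned in pairs, and identity was counted over aligned bases, leaving out gaps. It ran from 69.3% (CEACAM6 and CEACAM8, 225 aligned bases) to 84.0% (CEACAM5 and CEACAM7, 244 aligned bases) in the 21 pairs.

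In the RefSeq gene order, CEACAM4, CEACAM7, CEACAM5, CEACAM6 and CEACAM3 follow one another without another protein-coding gene between them, CEACAM1 and CEACAM8 are next to each other, and CEACAM19 stands apart. The 5 protein-coding neighbours on each side were chosen for a look after the members' values had been seen. Their counts stand beside 14.8% of all genes higher in RWV and 15.4% lower. Around the run of 5 members, 10 neighbours were measured, of which 1 passed the limma test as higher in RWV, 0 as lower, and 4 were dim in both groups. The 1 was BCKDHA, a subunit of the branched-chain keto acid dehydrogenase (0.91 ± 0.22, adjusted p = 0.0085). The genes that flank the run directly, CEACAM21 and LYPD4, were both dim. Around CEACAM1 and CEACAM8, 0 of 9 measured neighbours passed as higher and 2 as lower, LIPE (hormone-sensitive lipase, -1.31 ± 0.15, adjusted p = 1.2e-04) and TMEM145 (-0.78 ± 0.22, adjusted p = 0.018). Around CEACAM19, 1 of 9 passed as higher, the adhesion molecule NECTIN2 (0.74 ± 0.12, adjusted p = 7.9e-04), and 1 as lower, ZNF180 (-0.64 ± 0.12, adjusted p = 0.0018).

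Outside the family, the 5 genes with profiles over the 10 arrays most like that of CEACAM6 encode secreted proteins. Likeness was the root mean square difference of log2 values, each relative to the gene's own Mono mean, so a smaller value is more alike. It was 0.75 for PIP (prolactin-induced protein), 0.77 for CHGB (chromogranin B), 0.77 for TFF1 (a mucus-associated trefoil peptide), 0.82 for TCN1 (a vitamin B12-binding protein) and 0.85 for BPIFB1 (an airway lipid-binding protein). The log2 differences of these genes were 5.93, 5.24, 5.09, 6.45 and 5.40. The Mono means of TCN1 (55.9) and BPIFB1 (42.9) were under the dim level, so the size of their differences depends on the added 50. Among the members, CEACAM3 came nearest at 1.88, with 29 other genes nearer, followed by CEACAM7 at 2.37, CEACAM1 at 2.46 and CEACAM5 at 2.92, which have 74, 83 and 190 genes nearer. This measure weighs the size of the difference most, and the points share arrays. It was taken on gene means. That of CEACAM6 includes spot 44074, which was saturated on 3 RWV arrays, and the part of this in the likeness was not tested. That of CEACAM7 averages a higher spot with a spot dim on every array. The place of CEACAM7 is therefore that of this average and not of its higher spot.

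The other CEACAM genes and the pregnancy-specific glycoproteins (PSG), placental relatives in the same family, were mostly dim. Of 12 measured genes of 14 listed, 0 passed the limma test, and 2 had an unadjusted p under 0.05, both higher in RWV. Over all genes, 14.8% passed as higher and 15.4% as lower. Their median difference was 0.12, with a range of -0.15 to 0.36, beside 0.00 over all genes, and 9 of the 12 were dim in both groups. CEACAM20 was not dim, at mean intensities of 1137 on RWV and 1253 on Mono arrays (-0.13 ± 0.23, limma adjusted p = 0.73). PSG3 had the lowest p, with 47.2, 21.6, 50.4, 27.7 and 29.6 on RWV and 10.5, 13.3, 7.4, 31.1 and 20.7 on Mono arrays, all of them dim (adjusted p = 0.062).

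Proteins described as binding or signalling with CEACAMs were next counted. Of 23 measured partners, 3 rose in RWV, 1 fell and 19 did not pass the test, with a median difference of -0.07. Over all genes, 14.8% rose and 15.4% fell. The Src-family kinases FYN and SRC, which can phosphorylate the CEACAM1 tail, rose by 0.90 ± 0.22 (limma adjusted p = 0.0079) and 0.78 ± 0.20 (adjusted p = 0.011). FYN read 458.5, 297.4, 131, 282.8 and 321.2 on RWV, against 117.2 to 142.6 on Mono arrays, and only RWV 3 lay within the Mono range. SRC read 4614 to 6249 on RWV and 1970 to 4588 on Mono arrays, without overlap. ITGAV, the integrin alpha V subunit, rose by 0.66 ± 0.12 (adjusted p = 0.0012).

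PTPN11, the SHP2 phosphatase that binds the CEACAM1 tail, fell by 0.36 on the log2 scale (SE 0.12, limma adjusted p = 0.031), with 1927 to 2508 on RWV and 2555 to 3623 on Mono arrays. It no longer passed without any of Mono 1, Mono 4, RWV 1, RWV 2 or RWV 4, when its highest adjusted p was 0.074, nor when arrays were scaled to their 75th percentile (0.068). Its brightest spot alone differed by -0.03. Without normalisation between arrays, SRC (adjusted p = 0.063), ITGAV (0.40) and PTPN11 (0.10) did not pass, and SRC did not pass with its brightest spot either (0.051).

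Of 15 factors described for CEACAM promoters or CEACAM1 splicing, 4 rose, 4 fell and 7 did not pass the limma test, with a median difference of 0.06. For all genes these shares were 14.8% risen and 15.4% fallen. SOX9, a transcription factor of epithelial progenitors, rose by 1.54 ± 0.22 (adjusted p = 3.2e-04), with 1013 to 1777 on RWV and 249.3 to 629.2 on Mono arrays. KLF4, a factor of epithelial differentiation, rose by 1.09 ± 0.13 (adjusted p = 1.5e-04), and IRF1, an interferon-responsive factor, by 1.04 ± 0.15 (adjusted p = 4.3e-04). HNRNPL, an RNA-binding splicing regulator, fell by 1.00 on the log2 scale (SE 0.21, adjusted p = 0.0039), with 995.2 to 2526 on RWV and 2183 to 3233 on Mono arrays, and only RWV 3 lay within the Mono range. Of the USF factors, which bind the E-box, USF2 rose by 0.49 ± 0.14 (adjusted p = 0.017). It did not pass without normalisation between arrays (0.17) or within array set 1 (0.11) or 2 (0.14). USF1 differed by 0.02 ± 0.15 (adjusted p = 0.96). The filter on dim genes leaves USF1 out, so it was dim on most arrays and a lack of change cannot be read from it. SP1, which binds the GC box, differed by 0.06 ± 0.10 (adjusted p = 0.73).

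Because CEACAM5, CEACAM6, CEACAM7 and CEACAM8 carry a GPI anchor, other GPI-anchored surface proteins were counted. Of 30, 12 rose, 1 fell and 17 did not pass the limma test, with a median difference of 0.26 and 4 dim in both groups. The shares of all genes that rose and fell were 14.8% and 15.4%. PLAUR, the urokinase receptor, read 8212, 13129, 9575, 7332 and 6816 on RWV and 1510, 2150, 2706, 1041 and 2049 on Mono arrays, without overlap (2.25 ± 0.25, adjusted p = 8.2e-05). CPM, a carboxypeptidase of alveolar epithelium, rose by 2.08 ± 0.27 (adjusted p = 2.1e-04), and NT5E, the ectonucleotidase CD73, by 1.99 ± 0.31 (adjusted p = 5.3e-04). TFPI, the inhibitor of tissue factor, rose by 1.66 ± 0.46 (adjusted p = 0.016), which no longer passed with saturated values removed (adjusted p = 0.060). Their removal left fewer TFPI spots averaged on 1 array, so that fit mixes levels of different spots.

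The genes that build and attach the GPI anchor were counted as well. Of 28 genes, 9 rose, 2 fell and 17 did not pass the limma test, with a median difference of 0.06. Among all genes, 14.8% rose and 15.4% fell. PIGF, which helps to add ethanolamine phosphate, rose by 0.87 ± 0.14 (adjusted p = 8.0e-04), with 5519 to 7819 on RWV and 2524 to 4148 on Mono arrays. PIGV, a mannosyltransferase, rose by 0.81 ± 0.17 (adjusted p = 0.0042), and PIGT, of the transamidase that attaches the anchor, by 0.77 ± 0.10 (adjusted p = 2.2e-04). PIGW, an inositol acyltransferase, fell by 0.69 on the log2 scale (SE 0.16, adjusted p = 0.0060). Without normalisation between arrays 2 of these 28 genes passed, and PIGF (adjusted p = 0.059) and PIGV (0.15) did not. PIGT did not pass with saturated values removed (0.33). This left fewer of its spots averaged on 1 array, so that fit mixes levels of different spots.

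**Figure D4:**
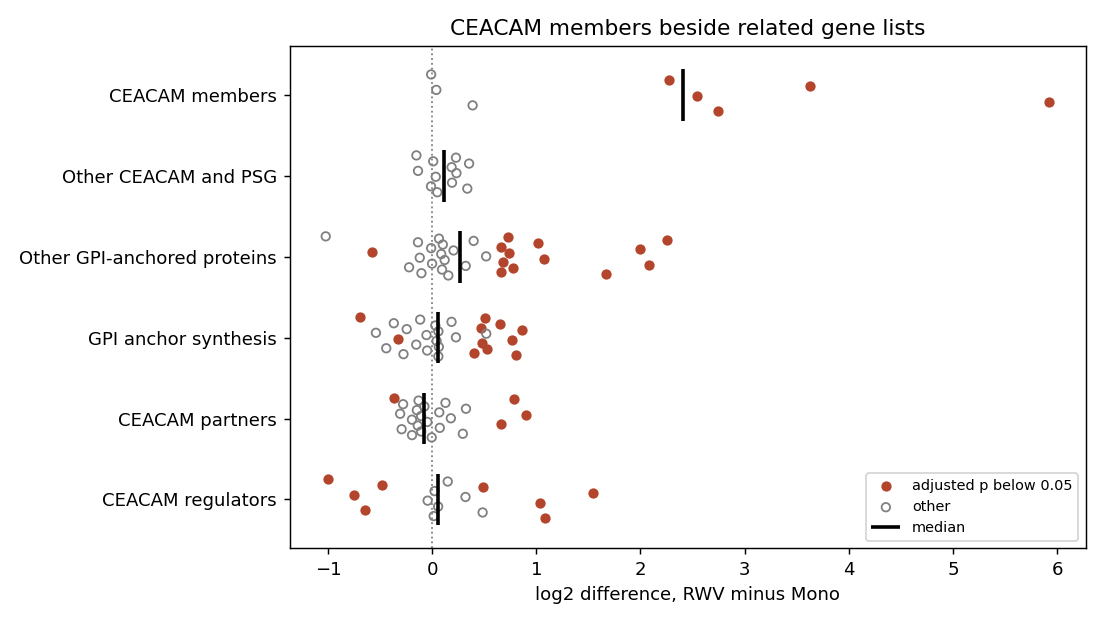
Difference between RWV and Mono (log2, RWV minus Mono) of each measured gene in the CEACAM members and 5 related lists, with filled points for an adjusted p under 0.05 and a black bar for the median. The median of the members lies at 2.41, and those of the other lists between -0.07 and 0.26. The members were chosen with this difference known.

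Of the 8 epithelial markers, 3 rose and 1 fell, beside 14.8% and 15.4% of all genes. MUC1, a membrane mucin, rose 3.99-fold (log2 SE 0.32, limma adjusted p = 7.5e-04), the keratin KRT19 by 1.55 ± 0.36 (adjusted p = 0.0066) and the tight junction protein CLDN4 by 1.20 ± 0.25 (adjusted p = 0.0036). KRT19 was saturated on 2 RWV arrays, and CLDN4 was dim on 3 of 5 Mono arrays. KRT19 (adjusted p = 0.082) and CLDN4 (0.072) did not pass within array set 1, nor MUC1 (0.097) within set 2. The keratin KRT7 fell by 1.71 on the log2 scale (SE 0.21, adjusted p = 1.4e-04), with 4876 to 9638 on RWV and 17848 to 32836 on Mono arrays. Fibroblast markers summed to 105 to 154 on RWV and 140 to 244 on Mono arrays, with 0 of 4 past the test and 1 with an unadjusted p under 0.05, COL1A1 (-0.47 ± 0.17, adjusted p = 0.052). COL1A1 passed as lower in RWV with the array set as a block (adjusted p = 0.0496), with the filter on dim genes (0.039), by its brightest spot (-0.75, adjusted p = 0.0083), without Mono 1 (0.033), Mono 2 (0.039) or RWV 3 (0.043), and without Mono 4 and RWV 3 (0.045). PDGFRB was dim in both groups. The endothelial markers PECAM1, VWF and CDH5 were dim in both, with sums of 91.4 to 177 on RWV and 102 to 162 on Mono arrays, and 0 of 3 passed, also at an unadjusted p. CDH5 had the lowest p of these (adjusted p = 0.26).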

How the data were processed

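One-colour arrays were hybridised with Cy3-labelled total RNA of 10 A549 cultures, per the labels. The deposited values are spot intensities on a linear scale, whole numbers from -66 to 65493 for 45220 spots. The negative values point to background subtraction before deposit, and array medians differ, so no normalisation between arrays is visible. Which scanner, software and background correction the authors used is not stated in the sources used here. The platform annotation gave 31332 spots 1 symbol, 93 several and 13795 none, and only the first were used. Of these, 31291 were matched by gene number to RefSeq genes of GRCh38.p14, and 0 symbols changed. No pair of arrays held the same value in more than 1.46% of spots, and array correlations were 0.978 to 0.990 within RWV, 0.964 to 0.990 within Mono and 0.910 to 0.978 between them.

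Intensities were quantile normalised with limma 3.58.1 (R 4.3.3, with the data.table package, version 1.17.8), values below 0 were set to 0, 50 was added and log2 was taken. Spots of a gene were averaged. RWV was compared with Mono by lmFit and eBayes (two-sided) at 0.05 after Benjamini-Hochberg adjustment across genes or, for spots, across named spots, and the fit was checked on simulated data. Fold changes are on the log2(value + 50) scale, which understates those of dim genes. The fold of CEACAM5 against the dim level is its RWV mean over that level, with dim RWV values as read and without the added 50. Start regions and figures used Python 3.11.15, Biopython 1.88, pandas 2.3.3 and matplotlib 3.10.9. The number of arrays limits the precision.

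The members, lists, tests and settings were chosen with earlier results of these data known. The genes named are all members, up to 4 genes of each of 9 lists past the test with the largest difference (or the lowest p where none passed) and the 5 nearest profiles to CEACAM6. USF1, USF2, SP1, CEACAM20 and the chromosomal neighbours lie outside this rule and were chosen after their values were seen. Alternatives were other scalings, pseudocounts, spot rules, filters, blocks and sets of arrays.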

Additional observations from a re-analysis of the deposited data

Results flagged for a closer look

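Among 86 groups of 5 arrays checked, for the members, their spots and the genes named from the lists, 7 had an array apart from the other 4. An array counted as apart where its gap to the next value was over 0.71 of the range of the 5 (Dixon's rule). Chance gives about 1 in 20 for a single group, but gene means and their own spots are both among the groups, so these are not independent. In CEACAM19, Mono 4 was high, at 10.62 on the log2(value + 50) scale (normalised intensity 1519, against 862 to 1016 on the other Mono arrays). In CEACAM1 spot 8119, RWV 3 was low, at 12.42 (5435, against 9113 to 11001 on the other RWV arrays). In CEACAM7 spot 38746, Mono 5 was high, at 6.93 (71.9, against 18 to 29.4), though all of these values were dim. Of the genes in the related lists, KLF4 was high on Mono 5, at 7.71 (160.0, against 89.1 to 106.0), and MUC1 was low on Mono 4, at 7.73 (162, against 311 to 388). PIGF was high on RWV 3, at 12.94 (7819, against 5519 to 5977), and TFPI was low on RWV 3, at 11.81 (3535, against 6635 to 7632).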

How the results depend on the processing

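The 5 member calls numbered 4 to 6 when each array was left out in turn, 4 within each array set, with a pseudocount of 200 and without Mono 4 and RWV 3, and 6 with the brightest spot. The 10 spot calls numbered 9 to 10 with each array left out, 8 within array set 1 and 7 within set 2. Spot calls have no value for the brightest spot and the filter on dim genes. Fits within array sets and without Mono 4 and RWV 3 were added after seeing the data. With each array left out, calls numbered 0 to 1 for the other CEACAM and PSG genes, 3 to 5 for partners, 8 to 9 for regulators, 10 to 12 for GPI anchor synthesis, 11 to 14 for other GPI-anchored proteins and 4484 to 5643 over all genes.

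Without normalisation between arrays, calls fell to 2 of partners, 2 of GPI anchor synthesis genes, 7 of other GPI-anchored proteins and 3555 of all genes. That split was 1037 higher and 2518 lower (29.2% higher) with a median shift of -0.13, against 2708 and 2821 (49.0%) after quantile normalisation. Within array set 1, 1 partner, 5 regulators, 3 GPI anchor synthesis genes and 3056 of all genes passed. Within set 2, with 2 arrays a group, these were 1, 1, 0 and 1056, with 4 other GPI-anchored proteins, and 10 GPI anchor synthesis genes had an unadjusted p under 0.05 by limma. Of the other CEACAM and PSG genes, 1 passed with a pseudocount of 16 and 1 without Mono 4 and RWV 3. Of the genes named in the partner, regulator and GPI lists, FYN, SRC, PTPN11, HNRNPL, PIGV, PIGW and TFPI did not pass within set 1, nor SRC, ITGAV, PTPN11, SOX9, KLF4, HNRNPL, PIGF, PIGV, PIGT, PIGW and TFPI within set 2, in the same direction. The smaller sets have fewer samples; for the other changes the cause was not tested. No called difference of a member, member spot or named list gene reversed in the settings run; other genes were only counted.

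Deviations of same-numbered arrays correlated at -0.15 to 0.22, and 3 of 5 RWV arrays correlated best with their own number. This is a hint of pairing at most, and the arrays were treated as sharing only a number. With the replicate block, 5 members, 10 spots, 0 other CEACAM and PSG genes, 5 partners, 8 regulators, 10 GPI anchor synthesis genes, 15 other GPI-anchored proteins and 5399 of all genes passed.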
